A study of Mus musculus with 8 samples.

Results

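The genes by which glia build, load and take up lipoproteins were examined in RNA pulled down with ribosomes of Müller cells, which are the radial glia that span the retina. They were chosen by symbol as Apoe, Clu, Dbi, Abca1, Abcg1, Abca8a, Abca8b, Lrp1, Vldlr and Scarb1. All 10 were measured, each as 1 gene of the 12339 in the deposited table. There were 4 libraries from mice in which Nrf2 was conditionally knocked out in Müller cells (cKO), and they were set against 4 wild-type (WT) libraries. Both groups were retina at postnatal day 14 of oxygen-induced retinopathy (OIR), in which pups are kept in high oxygen and then returned to room air. In both, RiboTag was used, a method in which an epitope-tagged ribosomal protein lets the ribosomes of chosen cells be pulled down with their RNA. The labels do not give the Cre driver, the deleted exon, the alleles that the WT mice carried, sex or litter, nor whether a library was 1 animal, so p-values measure the spread between these libraries, which may be technical. Values are FPKM, the fragments of a gene scaled to transcript length and to the depth of the library.

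Neurons of the retina receive cholesterol and phospholipid from glia in lipoprotein particles. Müller cells make Apoe, the main lipid carrier of these particles, and transporters of the ABC family move lipid across the cell membrane onto it. Receptors of the LDL receptor family then take the particles up. The LXR and RXR nuclear receptors switch on Apoe, Abca1 and Abcg1 when sterols accumulate, and Nrf2 binds the antioxidant response element of the genes it activates.

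Without pairing of the libraries none of the 10 genes passed the test, and with pairing 3 of them were lower in cKO. Lrp1, an endocytic receptor for Apoe-containing particles, fell by 20.98%. Abca1, which loads cholesterol onto lipid-poor Apoe, fell by 31.0%, and Abca8a, a transporter of the same subfamily, fell by 22.3%. Each call was lost in some fits that left out a pair, and all 3 were lost in a fit corrected for transcript length and GC content. The abundant carriers Apoe, Clu and Dbi did not pass, nor did Abcg1, Abca8b, Vldlr and Scarb1. The test was limma on log2(FPKM + 0.5) over all 12339 genes, with Benjamini-Hochberg adjustment and a threshold of 0.05. Equal replicate numbers (1, 3, 4 and 5 in each group) marked libraries that deviated together, so each result is also given from a fit in which that number was a block. Without the block 0% of all genes passed. At an unadjusted p under 0.05 there were 2 of the 10 genes (Abca1 and Lrp1) and 10.6% of all genes. With the block 10.6% of all genes passed, made up of 7.59% lower and 2.99% higher in cKO. No called gene of the 10 was higher.

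The transcription start regions of the 3 genes called lower, and of Abca8b, which lies beside Abca8a, are shown because they are where Nrf2 or LXR/RXR could be looked for by sequence. They are RefSeq windows on GRCm38.p6, each from 250 bases before to 50 bases after a start and printed 5′ to 3′ on the strand of the gene. RefSeq windows were matched for 7 of the 10 genes, 11 windows in all. Capitals mark TGACNNNGC, the core of the antioxidant response element, searched on both strands.
Lrp1, chr10:127621099-127621398, minus strand: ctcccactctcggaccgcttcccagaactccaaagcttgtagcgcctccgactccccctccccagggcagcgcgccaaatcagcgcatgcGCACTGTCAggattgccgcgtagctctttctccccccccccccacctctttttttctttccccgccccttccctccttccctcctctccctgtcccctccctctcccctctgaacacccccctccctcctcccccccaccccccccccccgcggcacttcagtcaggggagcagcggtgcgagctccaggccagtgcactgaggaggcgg
Abca1, chr4:53159846-53160145, minus strand: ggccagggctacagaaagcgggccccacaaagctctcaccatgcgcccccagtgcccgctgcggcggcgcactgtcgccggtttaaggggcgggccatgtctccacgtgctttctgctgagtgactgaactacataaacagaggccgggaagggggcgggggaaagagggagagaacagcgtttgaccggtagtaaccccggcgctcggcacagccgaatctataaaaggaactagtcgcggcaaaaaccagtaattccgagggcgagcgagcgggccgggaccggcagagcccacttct
Abca8a, chr11:110095888-110096187, minus strand: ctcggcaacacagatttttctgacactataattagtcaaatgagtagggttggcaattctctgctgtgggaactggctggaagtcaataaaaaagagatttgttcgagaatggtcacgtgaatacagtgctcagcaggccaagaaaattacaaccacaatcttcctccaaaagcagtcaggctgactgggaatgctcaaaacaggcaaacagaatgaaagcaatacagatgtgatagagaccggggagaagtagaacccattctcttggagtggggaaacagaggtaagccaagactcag
Abca8b, chr11:109995796-109996095, minus strand: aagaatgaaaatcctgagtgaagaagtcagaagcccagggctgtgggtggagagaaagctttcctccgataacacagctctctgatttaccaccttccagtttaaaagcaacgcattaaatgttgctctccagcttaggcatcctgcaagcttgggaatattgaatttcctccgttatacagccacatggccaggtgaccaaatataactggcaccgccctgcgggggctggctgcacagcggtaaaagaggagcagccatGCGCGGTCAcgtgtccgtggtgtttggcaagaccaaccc
The core was found in 2 of the 11 windows and in 12.4% of the 32851 windows of the table. In Lrp1 it lay on the opposite strand with its first base at position −160 from the start, and in Abca8b on the opposite strand at base 12 after the start. The LXR/RXR direct repeat, searched as GGTCA and AGGTCA with any 4 bases between them and so holding the half-site AGGTCA, was in 0 of the 11 windows and in 0.0213% of all windows. The half-site alone was in 0 of the 11 and in 16.3% of all. A match is a run of letters and not a bound site. Apart from the free bases only exact letters were matched, so 0 matches does not show that a window lacks a site.

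The label of the cells was checked first. All 12 Müller cell markers that are not among the 10 genes were measured, and they summed to between 6816 and 9618 FPKM in cKO libraries and between 6676 and 11043 FPKM in WT libraries. Rod markers, 8 of 8 measured, summed to 2836 to 4151 FPKM in cKO and 2613 to 4192 FPKM in WT libraries, so RNA of other retinal cells was in the pull-downs. Of the markers of microglia and macrophages, another known source of Apoe, C1qa, C1qb, Cx3cr1, P2ry12, Tmem119 and Csf1r were not in the table. Of 8 markers of the pigment epithelium only Ttr and Rdh5 were in the table, with sums of 5.57 to 9.33 FPKM in cKO and 5.02 to 10.6 FPKM in WT libraries. Each gene in the table had a mean above 2 FPKM, so the other markers may have been below that level. The markers of astrocytes and reactive glia, 6 of 7 measured, summed to 258 to 518 FPKM in cKO and 97.7 to 258 FPKM in WT libraries. Sums of neuronal markers were 50.9 to 80.2 FPKM in cKO and 53.4 to 93.7 FPKM in WT libraries for cones (6 of 7 measured). For amacrine and horizontal cells (6 of 9) they were 26.8 to 40.8 FPKM in cKO and 38.9 to 60.6 FPKM in WT, and for ganglion cells (6 of 8) 46.4 to 66.1 FPKM in cKO and 64.2 to 85.8 FPKM in WT. Those of bipolar cells (8 of 8) were 1409.8 to 1711 FPKM in cKO and 1095 to 1497 FPKM in WT libraries, and those of endothelial cells and pericytes (4 of 9) were 206 to 255 FPKM in cKO and 195 to 279 FPKM in WT. The part of other cells in the results below was not tested.

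Nfe2l2, the gene of Nrf2, was at 13.6 ± 2.66 FPKM in cKO and 19.2 ± 2.66 FPKM in WT (SD, n = 4 each), with no overlap (limma adjusted p = 0.453, and 0.0219 with the block). With the block its call was lost without pair 1 (limma adjusted p = 0.0785), pair 4 (0.0846) or pair 5 (0.0634), and it passed without pair 3 (0.0182).

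In level the 10 genes spanned from Apoe, second in mean FPKM among the 12339 genes, to Abca8b, in which 40.4% of genes were lower. Over all 8 libraries the means were 2561 FPKM for Apoe, 1170.4 for Dbi, 722 for Clu, 113 for Abca8a, 79.8 for Scarb1, 66.7 for Lrp1, 35.1 for Vldlr, 25.3 for Abcg1, 13.3 for Abca1 and 11.5 for Abca8b. The order of Apoe, Dbi, Clu and Abca8a held in all 8 libraries. Abca8a was above Scarb1 in 6 of 8 libraries, Scarb1 above Lrp1 in 7, and Abca1 above Abca8b in 7, so these neighbours were not set apart beyond their spread. Lrp1, Vldlr, Abcg1 and Abca1 followed each other in that order in all 8 libraries. Scarb1 varied least, with its highest library 1.205 times its lowest, and Abca8a most, at 2.68 times.

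**Figure D1:**
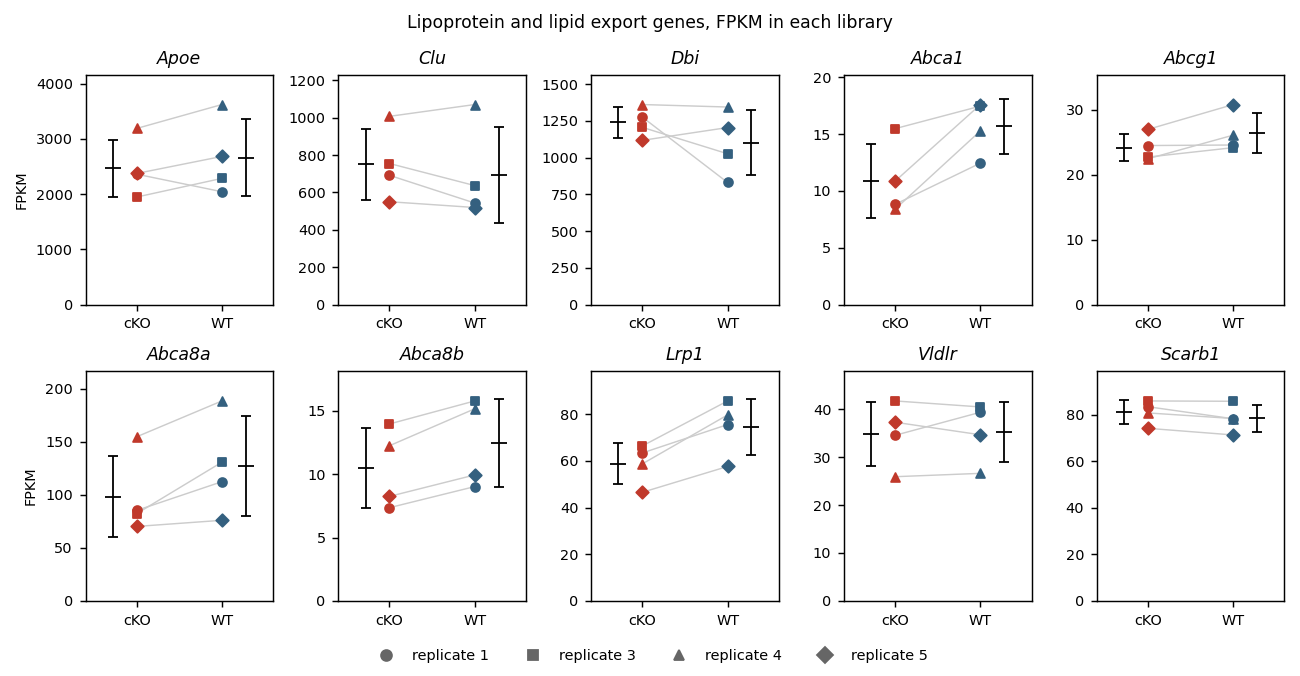
FPKM of each gene (vertical axis from 0, its own scale in each panel) in the 4 cKO and 4 WT libraries; marker shapes give the replicate number, grey lines join equal numbers, and black bars are the mean ± SD of a group. For Lrp1, Abca1 and Abca8a each joined line is lower at its cKO end, while the spread between pairs is wide, as in Abca8a, at 70.3 to 155 FPKM in cKO and 76.1 to 189 FPKM in WT.

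The lipid carriers come first. Apoe (ENSMUSG00000002985; GRCm38 chromosome 7, 19696109 to 19699188, minus strand) was at 2359.5, 1945, 3187 and 2372 FPKM in cKO replicates 1, 3, 4 and 5. It was at 2042, 2283, 3619.7 and 2681 FPKM in WT replicates 1, 3, 4 and 5. Replicate 4 was the highest library of both groups, and the groups overlapped widely. The difference was −0.10 on the log2 scale (cKO minus WT, 95% interval −0.59 to 0.40, limma adjusted p = 0.876). With the block the interval was −0.33 to 0.13 (adjusted p = 0.567). Apoe was lower in cKO in 3 of 4 pairs and higher in pair 1.

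Clu, or clusterin, is an apolipoprotein that also acts as a chaperone outside the cell. It was at 691, 755, 1007 and 550.3 FPKM in cKO libraries 1, 3, 4 and 5, and at 543, 637, 1070.3 and 519 FPKM in WT libraries of the same numbers. Replicate 4 was again the highest of both groups, and replicate 5 the lowest of both. The log2 difference was 0.15 (95% interval −0.41 to 0.71, and −0.05 to 0.35 with the block), with limma adjusted p = 0.831, and 0.304 with the block. Dbi, the acyl-CoA-binding protein that carries activated fatty acids inside the cell, was at 1275, 1206, 1361 and 1117 FPKM in cKO libraries 1, 3, 4 and 5. In WT libraries of the same numbers it was at 831, 1026, 1344 and 1204 FPKM. The 4 cKO values lay within a narrower range than the WT values, and WT 1 was the lowest of the 8. Dbi differed by 0.62, 0.23, 0.018 and −0.11 in pairs 1, 3, 4 and 5, with a mean log2 difference of 0.19 (95% interval −0.18 to 0.56, limma adjusted p = 0.654, and 0.336 with the block).

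Abca1 (ENSMUSG00000015243; GRCm38 chromosome 4, 53030787 to 53159895, minus strand) opened the exporters with the largest difference of the 10 genes. It was at 8.82, 15.5, 8.40 and 10.9 FPKM in cKO libraries 1, 3, 4 and 5. In WT libraries 1, 3, 4 and 5 it was at 12.4, 17.5, 15.3 and 17.6 FPKM. Each cKO library lay below its WT partner, but cKO 3 was above WT 1 and WT 4, so the groups overlapped. The mean was 10.9 ± 3.24 FPKM in cKO and 15.7 ± 2.41 FPKM in WT (SD, n = 4 each), a log2 difference of −0.54 (SE 0.19, limma adjusted p = 0.453). With the block Abca1 fell (SE 0.11, adjusted p = 0.0254). That call was lost when pair 1, 4 or 5 was left out (adjusted p = 0.0867, 0.0870 and 0.0769) and kept without pair 3 (0.0182). The exact two-sided permutation test of the 8 libraries gave p = 0.0857, where 70 assignments allow no p below 0.0286. The same permutation test gave p = 0.114 for Lrp1 and p = 0.343 for Abca8a, and it does not use the pairs.

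Abcg1, which moves cholesterol onto particles that already hold lipid, was at 24.5, 22.7, 22.5 and 27.0 FPKM in cKO libraries 1, 3, 4 and 5, and at 24.6, 24.2, 26.1 and 30.8 FPKM in WT libraries of the same numbers. It was lower in cKO in all 4 pairs, with a log2 difference of only −0.0048 in pair 1. The log2 difference was −0.12 (95% interval −0.36 to 0.11, and −0.28 to 0.03 with the block), with limma adjusted p = 0.649, and 0.275 with the block.

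Abca8a and Abca8b are neighbouring genes of the A subfamily on the minus strand of GRCm38 chromosome 11, Abca8a (ENSMUSG00000041828) at 110025634 to 110095978 and Abca8b (ENSMUSG00000020620) at 109932190 to 109995845. Members of this subfamily have been linked to cholesterol efflux. Abca8a was at 85.4, 82.4, 155 and 70.3 FPKM in cKO libraries 1, 3, 4 and 5, and at 112, 131, 189 and 76.1 FPKM in WT libraries of the same numbers. Replicate 4 was highest and replicate 5 lowest in both groups, and in each pair the cKO library was the lower one. The log2 difference was −0.36 (SE 0.29, limma adjusted p = 0.628). With the block Abca8a fell (SE 0.09, adjusted p = 0.0418). The call was lost without pair 1, 3 or 4 (adjusted p = 0.133, 0.120 and 0.0976) and kept without pair 5 (0.0387). Pair 3 showed the widest difference, at −0.66, and pair 5 the narrowest, at −0.11.

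Abca8b was at 7.37, 13.98, 12.3 and 8.26 FPKM in cKO libraries 1, 3, 4 and 5, and at 9.03, 15.8, 15.2 and 9.95 FPKM in WT libraries of the same numbers. Its 4 pairs differed by −0.28, −0.17, −0.30 and −0.26, the most even set among the genes that were lower in all pairs. The mean log2 difference was −0.25 (95% interval −0.42 to −0.08 with the block), and it did not pass (limma adjusted p = 0.682, and 0.0748 with the block). The ratio of Abca8a to Abca8b was 11.6, 5.89, 12.6 and 8.51 in cKO libraries 1, 3, 4 and 5, and 12.5, 8.29, 12.4 and 7.65 in WT libraries of the same numbers. Replicates 1 and 4 had the higher ratios in both groups. Of the 50-base stretches in the annotated transcripts of Abca8a, 1.64% also occur in those of Abca8b, and a read wholly within such a stretch matches both genes. An antisense gene overlaps 241 exonic bases of Abca8b, and the strand setting of the counting is not stated.

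Among the receptors, Lrp1 (ENSMUSG00000040249; GRCm38 chromosome 10, 127538161 to 127621148, minus strand) had the smallest adjusted p of the 10 genes with the block. It was at 63.4, 66.4, 58.7 and 46.6 FPKM in cKO libraries 1, 3, 4 and 5, and at 75.6, 85.7, 79.7 and 57.6 FPKM in WT libraries of the same numbers. In both groups replicate 3 was highest and replicate 5 lowest. WT 5 lay below 3 of the 4 cKO libraries, which is where the groups overlapped. The mean was 58.8 ± 8.74 FPKM in cKO and 74.7 ± 12.1 FPKM in WT (SD, n = 4 each), a log2 difference of −0.34 (SE 0.15, limma adjusted p = 0.469). With the block Lrp1 fell (SE 0.06, adjusted p = 0.0144). The call was kept without pair 1 or 5 (adjusted p = 0.0400 and 0.0403) and lost without pair 3 or 4 (0.0590 and 0.0717).

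Vldlr, a receptor for Apoe-containing particles whose loss in mice leads to abnormal vessels in the outer retina, was at 34.5, 41.7, 25.9 and 37.3 FPKM in cKO libraries 1, 3, 4 and 5. In WT libraries of the same numbers it was at 39.3, 40.4, 26.6 and 34.6 FPKM. Replicate 4, the highest library for Apoe in both groups, was the lowest for Vldlr in both. The log2 difference was −0.019 (95% interval −0.18 to 0.14 with the block, limma adjusted p = 0.971, and 0.885 with the block), with 2 pairs in each direction. Scarb1, a receptor for high-density lipoprotein that lets cholesterol pass in either direction, was at 83.5, 86.0, 80.8 and 74.2 FPKM in cKO and at 78.3, 85.8, 78.4 and 71.3 FPKM in WT libraries 1, 3, 4 and 5. It was the only gene of the 10 that was higher in cKO in all 4 pairs, by 0.092, 0.0024, 0.043 and 0.056, and its interval with the block was −0.08 to 0.18 (log2 difference 0.048, limma adjusted p = 0.846, and 0.612 with the block).

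**Figure D2:**
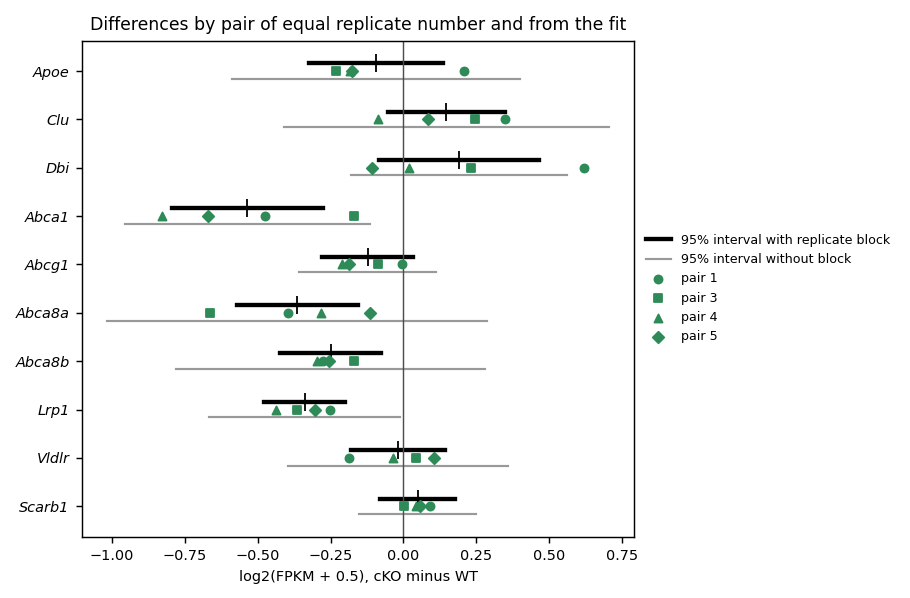
Log2 difference of each gene, cKO minus WT (horizontal axis); green markers are the 4 pairs of equal replicate number, and bars are the 95% intervals of limma, thick with the replicate block and thin without it. The thick bars of Abca1, Abca8a, Abca8b and Lrp1 lie below 0, and those of the other 6 genes cross it.

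Counted over the 10 genes, 5 were lower in cKO in all 4 pairs (Abca1, Abcg1, Abca8a, Abca8b and Lrp1) and 1 was higher, where 19.5% of all genes were lower and 16.7% higher in all 4 pairs. That makes 6 of the 10 genes with 1 direction in all pairs, against 36.2% of all genes. The 4 cKO values lay wholly above or below the 4 WT values in 0 of the 10 genes and in 4.34% of all genes. The median log2 difference was −0.11 over the 10 genes and 0.0036 over all genes.

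The libraries differed in their level of Müller cell RNA along the same lines as several of the genes. The 12 Müller cell markers summed to 9618 FPKM in cKO 4, against 6816 to 7014 in the other cKO libraries, and to 11043 FPKM in WT 4, against 6676 to 8172 in the other WT libraries. Apoe, Clu, Dbi and Abca8a were also highest in replicate 4 of each group. In such bulk samples fewer Müller cells and less RNA per cell cannot be told apart. When all values were scaled to the mean log2 level of these 12 markers, Lrp1 and Abca1 were still called with the block (−0.26, adjusted p = 0.0487, and −0.46, adjusted p = 0.0349). Abca8a was not (−0.29, adjusted p = 0.0666), and Dbi was then called higher (0.27, adjusted p = 0.0444). With this scaling the median log2 difference over all 12339 genes was 0.083, against 0.0036 as deposited. With the block, 918 of all genes were then called higher and 534 lower, against 369 and 936 without the scaling. This scaling was chosen after the data were seen, and the part of the marker level in the results was not tested further.

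**Figure D3:**
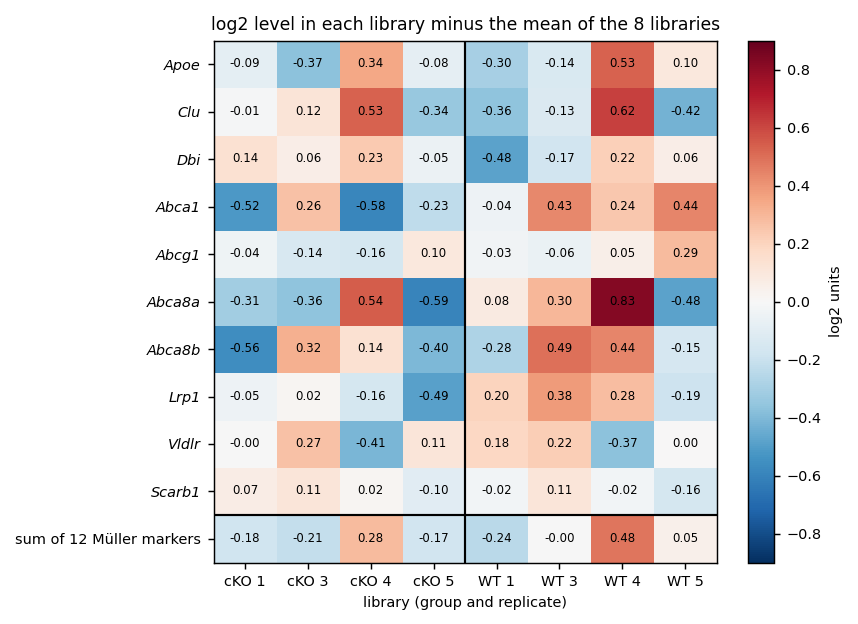
Log2(FPKM + 0.5) of each gene (rows) in each library (columns, cKO left of WT) minus the mean of the 8 libraries, with the log2 sum of 12 Müller cell markers in the lowest row. In replicate 4 of both groups the marker sum, Apoe, Clu and Abca8a are above their means and Vldlr is below.

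Transcript length moved with the difference between the groups, over all genes and over these. The longest annotated coding transcripts were 14888 bases for Lrp1, 10262 for Abca1, 7971 for Vldlr, 7423 for Abca8b, 5832 for Abcg1 and 5619 for Abca8a. Those of Scarb1, Clu, Apoe and Dbi had 2521, 1810, 1408 and 569 bases. When the genes with a length were put into 4 bins of about equal size, the median log2 difference was 0.10 in the bin of the shortest transcripts and −0.10 in that of the longest, which starts at 4684 bases and holds 6 of the 10 genes. In that bin 14.4% of genes were called lower with the block and 0.909% higher, against 3.85% lower and 6.31% higher in the shortest bin. Of 307 genes with a transcript of at least 10000 bases, 34.9% were called lower, with a median of −0.24.

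A correction of each library for transcript length and GC content, added after the data were seen, ended the 3 calls. Lrp1 then differed by 0.0093 (limma adjusted p = 0.941 with the block). Abca1 differed by −0.35 (adjusted p = 0.119) and Abca8a by −0.32 (adjusted p = 0.0624), each still lower. Nfe2l2 remained called in that fit (−0.54, adjusted p = 0.0245). RNA integrity is not given, and its part in the length trend was not tested.

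**Figure D4:**
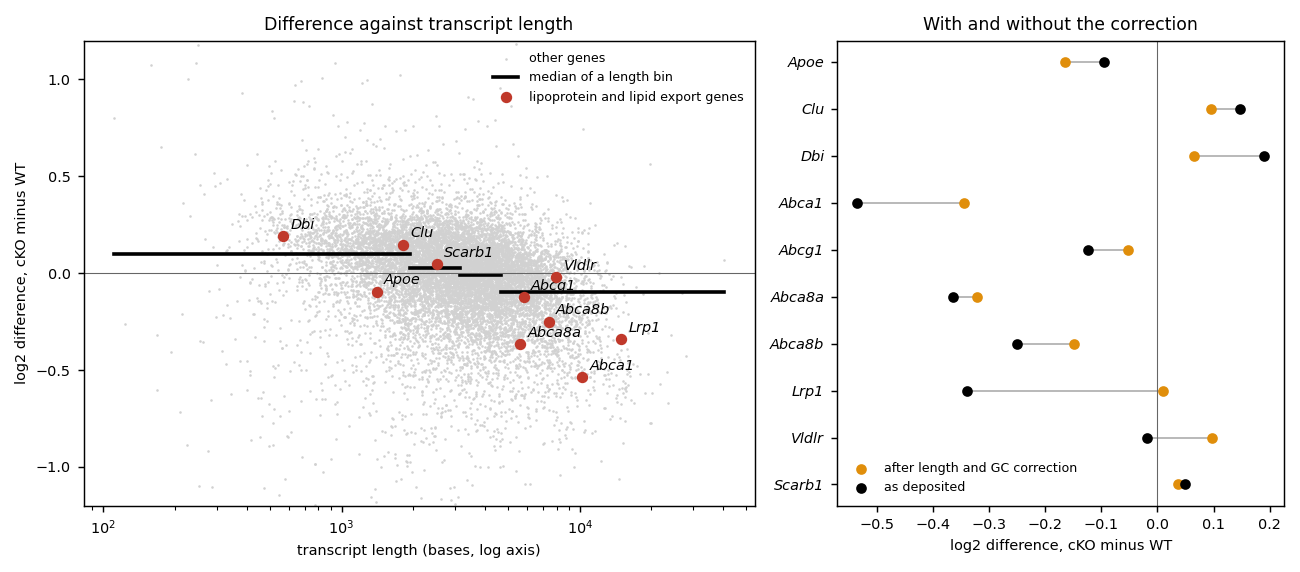
Left, log2 difference (cKO minus WT) against transcript length on a log axis for all genes with a length, with the medians of 4 length bins as black bars; 37 of 12327 genes lie outside the frame. Right, the difference of each of the 10 genes as deposited and after correction for length and GC content, where Lrp1 moves to 0.0093 and Abca1 and Abca8a stay below −0.3.

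Other genes of the lipoprotein pathway were counted from 5 lists, and 66 of their 96 genes were measured. With the block 11 fell, 1 rose and 54 did not pass, where 7.59% of all genes were lower and 2.99% higher. The same shares of all genes are the background for the counts in each list below. Of the 11 that fell, 10 were in the bin of the longest transcripts, in which 28 of the 66 lay. Among all genes in that bin 14.4% were called lower. Without the block 0 of the 66 passed. With the block and without pair 1, 3, 4 or 5, 3, 4, 3 and 7 of the 66 passed, and with the block and the correction for length and GC content 4 passed. These counts do not show whether the genes were among the 12 called with all pairs.

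Among the other ABC transporters of the A, D and G subfamilies, 12 of 18 were measured, of which 5 fell with the block, 0 rose and 7 did not pass (median log2 difference −0.28). They were Abca4, the retinoid flippase of photoreceptors, at 101 ± 37.3 FPKM in cKO and 154 ± 62.3 FPKM in WT (log2 difference −0.58, limma adjusted p = 0.00440), Abca2 (−0.55, adjusted p = 0.0132), Abcg4 (−0.31, adjusted p = 0.0354), Abca7 (−0.61, adjusted p = 0.0396) and Abca5 (−0.31, adjusted p = 0.0489). Abcg4, which like Abcg1 exports sterols, was the one whose transcript was not in the longest bin. With the correction for length and GC content 2 of the 12 passed.

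Among the other LDL receptor family genes with their chaperones and partners, 18 of 22 were measured, of which 3 fell with the block, 0 rose and 15 did not pass (median −0.09). Lrp4, a receptor known from the nerve-muscle synapse, was at 15.1 ± 2.81 FPKM in cKO and 24.04 ± 6.10 FPKM in WT (log2 difference −0.63, limma adjusted p = 0.00377). Lrp2, or megalin, was at 4.52 ± 1.74 FPKM in cKO and 7.15 ± 2.70 FPKM in WT (−0.60, adjusted p = 0.0318). Sorl1, a sorting receptor that also binds Apoe, differed by −0.32 (adjusted p = 0.0318) and was the 1 of the 3 with no overlap between the groups. Lrpap1, the chaperone of Lrp1, was at 74.0 ± 4.44 FPKM in cKO and 71.5 ± 9.91 FPKM in WT (adjusted p = 0.614), and was named after its values were seen. With the correction for length and GC content 1 of the 18 passed.

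The LXR and RXR list, 9 of 12 measured, held 2 that fell with the block and 7 that did not pass (median −0.03). Ncor1, a nuclear receptor corepressor, fell by 0.47 on the log2 scale (limma adjusted p = 0.0181). With the correction for length and GC content 0 of the 9 passed, and 0 passed without pair 4 or without pair 5. Srebf1, a target of LXR that drives fatty acid synthesis, differed by −0.29 and did not pass (adjusted p = 0.153). Nr1h2, which encodes LXR beta, was at 35.3 ± 0.878 FPKM in cKO and 35.7 ± 3.10 FPKM in WT (adjusted p = 0.928), and was named after its values were seen.

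Of the genes of intracellular cholesterol and acyl-CoA handling 22 of 27 were measured, of which 1 fell with the block, 1 rose and 20 did not pass (median 0.09). Gramd1b, which carries cholesterol from the cell membrane to the endoplasmic reticulum, was at 43.5 ± 6.72 FPKM in cKO and 57.2 ± 11.6 FPKM in WT (−0.38, limma adjusted p = 0.0158). Acbd6, which like Dbi binds acyl-CoA, rose to 105 ± 11.2 FPKM in cKO, against 82.1 ± 13.1 FPKM in WT (0.36, adjusted p = 0.0180), and was higher in 4 of 4 pairs. Fabp7, a fatty acid carrier of glia, was higher in 4 of 4 pairs too but did not pass (0.52, adjusted p = 0.0605). With the correction for length and GC content 1 of the 22 passed, and 0 passed without pair 1 or without pair 3. Of the other apolipoproteins and lipid transfer proteins 5 of 17 were measured and 0 passed (median 0.14). In that list Lcat, which esterifies the cholesterol of lipoproteins, came nearest, at 15.5 ± 2.39 FPKM in cKO and 11.7 ± 2.16 FPKM in WT (0.40, adjusted p = 0.0574). Lipg, a lipase of the vessel wall, differed by −0.20 (adjusted p = 0.191) and Apoc1, a small apolipoprotein, by 0.14 (adjusted p = 0.335).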

How the data were processed

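The authors deposited 1 table of FPKM per gene and library, a unit given by the name of the table. Per the labels' protocols, the RNA was poly(A)-selected and the libraries directional. STAR and edgeR, with the builds GRCm38 and mm10, are named in the submitters' processing notes with no version or role, and the counting tool, strand setting and gene filter are not given in the sources used here. Column sums ran from 410581 to 448130 FPKM. The number of fragments is not given, so no counting interval was computed.

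From these values log2(FPKM + 0.5) was taken without further scaling and fitted in limma 3.58.1 (R 4.3.3; eBayes with a trend, two-sided). Deviations from the group means correlated over genes at 0.261 to 0.591 between cKO and WT libraries of equal number and at −0.479 to 0.211 for unequal ones, so by a rule on every pair exceeding 0.1 the numbers were taken to pair the libraries. Gene positions and transcript lengths are from GENCODE M21 on GRCm38 (12327 of 12339 IDs matched). The fits were tested on simulated data built with deviations shared between libraries of equal number. That test therefore does not bear on whether the real libraries are paired. The 10 genes and the lists were chosen with earlier results of these data known. Named genes were the 10, Nfe2l2, and of each list those past the threshold and up to 3 with the smallest p, a few of which are not reported here. Tried alternatives were other pseudocounts, a minimum mean of 5 FPKM, other scalings, weights, no trend, and leaving out libraries or pairs.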

Additional observations from a re-analysis of the deposited data

How the results depend on the processing

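Without the replicate block 0 of the 10 genes passed under any setting run, including the leaving out of each library in turn, and library weights called 1 of all genes. Counts with the block are given as the number of the 10 genes, then of all genes, then of the apolipoprotein, LDL receptor, ABC transporter, LXR and RXR and intracellular lists. The replicate block as such gave 3, 1305, 0, 3, 5, 2 and 2, with Nfe2l2 at −0.50 (limma adjusted p = 0.0219). With the block and median-of-ratios scaling they were 3, 1300, 0, 3, 5, 2 and 2 (Nfe2l2 −0.50, adjusted p = 0.0224). With TPM scaling they were 3, 1350, 0, 5, 5, 2 and 2 (Nfe2l2 −0.53, adjusted p = 0.0153), and with quantile scaling 3, 1064, 1, 3, 2, 2 and 2 (Nfe2l2 −0.46, adjusted p = 0.0301). In these 3 scalings the genes of the 10 that passed were Lrp1, Abca1 and Abca8a. With the block and the correction for length and GC content the counts were 0, 931, 0, 1, 2, 0 and 1 (Nfe2l2 −0.54, adjusted p = 0.0245), and with the block and Müller marker scaling 3, 1452, 1, 1, 2, 1 and 2 (Nfe2l2 −0.42, adjusted p = 0.0362), the 3 being Lrp1, Abca1 and Dbi. These 2 corrections were added after the data were seen. With the block and without replicate 1 of both groups the counts were 1, 402, 0, 1, 1, 1 and 0 (Nfe2l2 −0.51, adjusted p = 0.0785), without replicate 3 they were 1, 606, 0, 1, 2, 1 and 0 (Nfe2l2 −0.60, adjusted p = 0.0182), without replicate 4 they were 0, 524, 0, 1, 1, 0 and 1 (Nfe2l2 −0.45, adjusted p = 0.0846), and without replicate 5 they were 2, 821, 1, 2, 3, 0 and 1 (Nfe2l2 −0.42, adjusted p = 0.0634). Fits without a pair have fewer libraries, and the cause of other shifts was not tested.

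Directions turned in some settings, with none of the turned values past the threshold. Apart from Lrp1, these were genes with a difference near 0 that did not pass with the block. Scarb1 was at −0.012 with quantile scaling, with and without the block. Apoe was at 0.039 with library weights and between −0.23 and 0.065 when 1 library was left out. Clu ran from −0.0053 to 0.38 and Vldlr from −0.15 to 0.11 when 1 library was left out. Vldlr was also at 0.036 with the block and without replicate 1, at 0.097 with the correction for length and GC content, and at 0.061 with Müller marker scaling. Lrp1, which was called lower with the block at −0.34, was at 0.0093 with the correction for length and GC content. When 1 library was left out, Abca1 stayed between −0.71 and −0.43, Lrp1 between −0.46 and −0.23 and Abca8a between −0.61 and −0.15. The count of the 10 genes with no overlap ran from 0 to 1, the gene being Abca1 without cKO 3 and Lrp1 without WT 5.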

Other observations

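The genes whose log2 FPKM followed 4 of the 10 genes most closely over the 8 libraries are given as a description, since the libraries share pairs and groups and the genes were picked from 12339. For Apoe they were Ntn4, Jdp2 and Ldhb (Pearson r 0.975, 0.975 and 0.974, Spearman rho 1, 0.952 and 0.976). For Abca8a they were Adamtsl2, Gaa and Thy1 (Pearson r 0.966, 0.966 and 0.963, Spearman rho 0.881, 0.976 and 0.952). For Abca1 they were Odf2l, Yme1l1 and Cstf2 (Pearson r 0.974, 0.970 and 0.965, Spearman rho 0.929, 0.929 and 0.905). For Lrp1 they were Mat2a, Edem2 and Chkb (Pearson r 0.995, 0.983 and 0.983, Spearman rho 0.976 for each).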
